A study of Homo sapiens with 8 samples.

Results

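Transcripts tied to the endogenous retrovirus HERVH were followed through long-term culture of one human embryonic stem cell (hESC) line. The members, chosen by name but with earlier results of these data known, were ESRG, LINC-ROR, HHLA1, ABHD12B, LINC00678 and LNCPRESS1. These 6 genes were all found by Ensembl identifier among the 60675 genes of the tables, and all 6 passed the filter on low counts that left 19499 genes for testing. The series held 8 bulk RNA-seq libraries of H9 (WA09), an established hESC line, grown without feeder cells on Matrigel in mTeSR1, with 2 libraries for each of 4 sublines that differ in passage. P1 hESCs were at passage 40s, P2 at 100s, P3 at 200s and P4 at 300s. P3 and P4 are the culture-adapted hESCs of the study, in which a gain at 20q11.21 was described, and P1 and P2 are called early here and P3 and P4 late. Line, passage and any other difference between the sublines cannot be told apart, because each passage is 1 subline of the same cell line, and nothing in the labels says that the 2 libraries of a line came from separate cultures, so p-values measure the spread between these libraries.

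HERVH is a primate retrovirus that entered the germ line long ago and left many copies in the human genome. In pluripotent cells its long terminal repeat, LTR7, acts as a promoter under OCT4 (POU5F1), NANOG, SOX2, KLF4 and TFCP2L1, and the resulting chimeric or noncoding RNAs are used as marks of the human pluripotent state. TRIM28 and SETDB1 silence retroelements through histone methylation. ESRG is an abundant noncoding RNA of hESCs that has been reported to bind MCM2, LINC-ROR has been described as a microRNA sponge and as a partner of the RNA-binding protein PTBP1, and LNCPRESS1 is an RNA that holds back the deacetylase SIRT6. HHLA1 was named for its association with a HERVH repeat, ABHD12B is a paralog of the lipid hydrolase ABHD12, and no function is known with certainty for LINC00678.

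By the GENCODE 29 annotation (GRCh38), ESRG is a transcript of 4 exons on the minus strand of chromosome 3, from 54632122 to 54639857, inside the span of CACNA2D3 on the other strand and without exon overlap. LINC-ROR lies on chromosome 18 from 57054558 to 57072119 (minus strand), and the tables list LINC-ROR-201, 1 of its 8 transcripts. LINC00678 lies on chromosome 11 from 27617626 to 27634627 (minus strand), inside the span of BDNF-AS on the other strand. ABHD12B lies on chromosome 14 from 50872160 to 50904970 (plus strand), and of its 9 transcripts the protein-coding ABHD12B-201 and ABHD12B-202 start at 50872160, whereas ABHD12B-206, a processed transcript of 850 bases, starts at 50893582. HHLA1 lies on chromosome 8 from 132061486 to 132111159 (minus strand), with 3 transcripts, 2 of them protein coding. LNCPRESS1 lies on chromosome 7 from 101299578 to 101301346 (plus strand) and has 2 exons. The members were grouped by name, and the repeat at each gene was not read from an annotation here.

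Across the libraries, between 26874899 and 38095600 expected counts (reads that RSEM assigned to genes, whole or in part) were summed. Mitochondrial genes took 5.89% to 18.5% of them, with the 2 libraries of P1, P3 and P4 far apart and no common shift between early and late. All 10 markers of the undifferentiated hESC were present in every library, the lowest value being 27.5 TPM for ZFP42. In edgeR 0 of them were called in any comparison, where a single comparison called 0 to 767 of the 19499 tested genes. DESeq2, which called 40 to 1392 of the tested genes in a single comparison, called 1 of the 10, ZFP42. An unadjusted p under 0.05 was found for 7 of the 10 in at least 1 comparison, and single comparisons gave such a p for 9.14% to 29.5% of all genes. The share of all genes with such a p in at least 1 comparison is not given here. The 2 figures are therefore unlike and cannot be set against each other. Their summed TPM was 3130 to 4280 in P1, 4513 to 4712 in P2, 3337 to 4674 in P3 and 3670 to 5007 in P4. Markers of differentiated and other cells summed to 396 to 430 TPM in P1, 565 to 588 in P2, 470 to 473 in P3 and 499 to 719 in P4, with NEUROG2 and COL3A1 at 3 counts or fewer throughout. FOXA2, EOMES, HAND1 and KRT7 each reached at most 14.3 TPM, so most of this sum came from other genes of the list, which also holds THY1 and COL1A1. The sum is therefore not a measure of differentiated cells. Of 18 markers of differentiated and other cells 13 were tested, and 0 were called between late and early in the main edgeR test, while 4 were called in pairs of lines. DESeq2 called 1 gene of the list between late and early. So did edgeR with the 4 lines as groups and edgeR without the filter on low counts. Over all genes these fits called 906, 919 and 740. FOXA2, an endoderm factor, was at 0.945 and 0.977 CPM (counts scaled by library size) in P1, 0.633 and 0.560 in P2, 6.76 and 6.33 in P3, and 0.549 and 0.135 in P4, and was called higher in P3 against P1 and P2 and lower in P4 against P3. EOMES, a mesendoderm factor, was at 0.756 to 2.87 CPM in the early samples, 0.0948 and 0.0837 in P3 (3 counts each), and 0.584 and 0.606 in P4, and was called lower in P3 against P1 and P2. HAND1, a factor of mesoderm and trophoblast, was at 1.85 and 2.27 CPM in P2 (76 and 81 counts). It had 0 and 4 counts in P1, 0 in both P3 samples, and 4 and 5 in P4. HAND1 was called lower in P3 against P2. KRT7, a keratin of epithelia, was at 10.6 and 10.3 CPM in P1, 12.5 and 13.8 in P2, and 10.2 and 9.06 in P3. In P4 it was at 4.57 and 5.32 CPM and was called lower against P2. The part of these values in the results below was not tested.

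Levels between genes were compared in TPM, which accounts for transcript length, and libraries were compared in counts scaled to a common library size with TMM factors (CPM). ESRG stood highest of the 6 with a mean of 436 ± 65.7 TPM in the early samples (SD, n = 4), and LINC00678 followed at 335 ± 78.8 TPM. LNCPRESS1 was at 137 ± 55.5 TPM, ABHD12B at 32.9 ± 15.3, HHLA1 at 14.0 ± 4.71 and LINC-ROR at 2.67 ± 0.703 (SD, n = 4 for each). In the late samples LINC00678, at 304 ± 68.5 TPM, was above ESRG, at 233 ± 60.2 TPM (SD, n = 4 for each). Within a library, ESRG was above LINC00678 in all 4 early samples and below it in all 4 late ones. ESRG was at 532, 386, 421 and 406 TPM in the early samples in line order and at 193, 321, 195 and 225 in the late ones, where LINC00678 was at 345, 221, 395 and 380, and at 279, 385, 224 and 328.

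**Figure D1:**
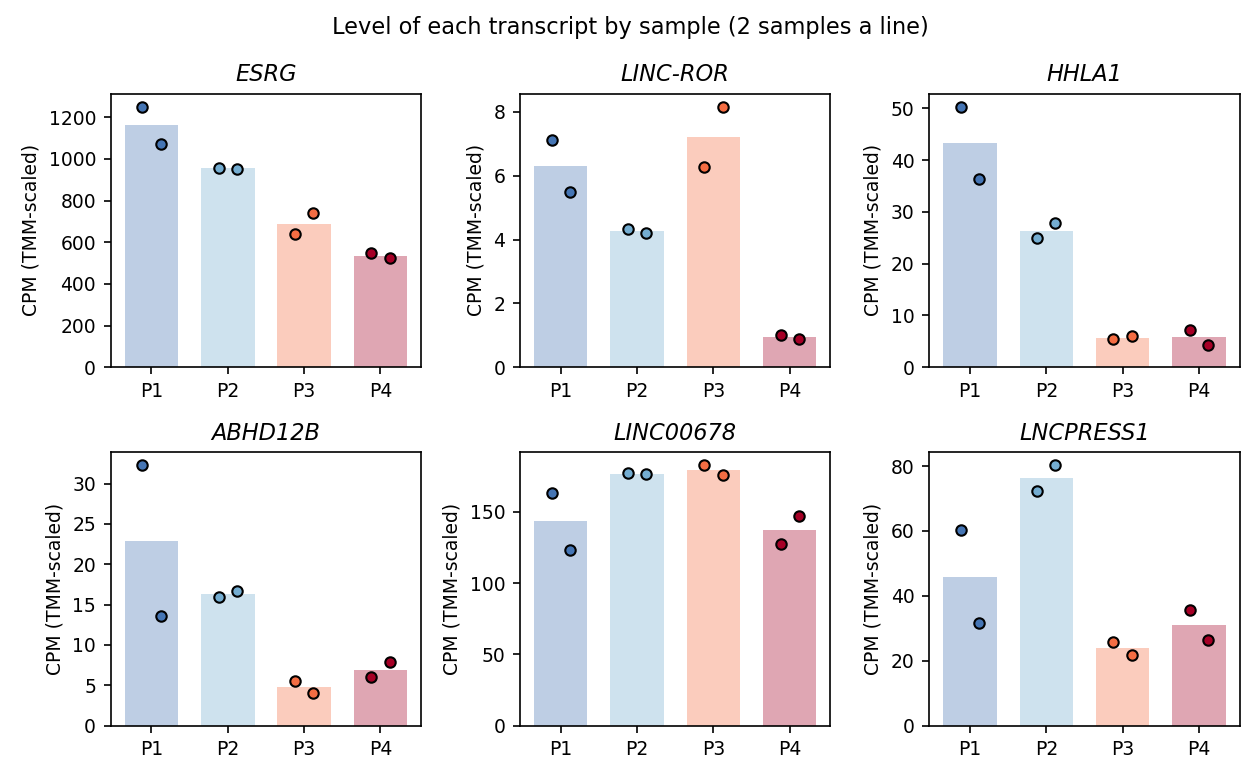
TMM-scaled CPM (linear axis from 0) of the 6 members in each of the 8 samples. Points are samples and bars the mean of the 2 samples of a line. HHLA1 and ABHD12B are low in both P3 and P4, LINC-ROR is low in P4 alone (1.00 and 0.87 CPM), and LINC00678 lies between 123 and 183 CPM throughout.

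A gene was called when its log2 fold change exceeded 1 in either direction and its FDR was under 0.01 in a quasi-likelihood test fitted with edgeR, the FDR being the Benjamini-Hochberg value over the 19499 genes. Between late and early hESCs, 2 of the 6 members were called and both, HHLA1 and ABHD12B, were lower. Over all genes tested 1.14% were called lower and 1.06% higher, so that 51.7% of the calls were lower. The share of lower calls was 62.6% in the 4-group model and 59.6% in DESeq2, where the median of all genes was near 0, and 62.4% with limma on log2(TPM + 0.1), where that median was -0.14. The median log2 fold change of the 6 members was -0.97 against 0.01 for all tested genes, and all 6 fitted values were negative. In ESRG, HHLA1 and ABHD12B every late sample lay below every early sample, in CPM and in TPM, which held for 9.19% of all tested genes in CPM.

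HHLA1 fell most. It was at 50.3 and 36.4 CPM in P1, 24.9 and 27.8 in P2, 5.37 and 5.94 in P3, and 7.24 and 4.27 in P4. The late samples lay far below the early ones, and P3 and P4 overlapped. The log2 fold change was -2.61 (SE 0.253, FDR = 0.000179 in edgeR's quasi-likelihood test), a 6.10-fold lower level. The exact permutation test of 4 against 4 samples gave p = 0.0286 (two-sided), the smallest value that 4 against 4 samples allow. Here and below that test takes the 4 libraries of a group as separate, although they come from 2 lines. HHLA1 was the member called in each of the 4 comparisons of a late with an early line, and its call held in all 8 fits that left out 1 sample.

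ABHD12B was at 32.3 and 13.6 CPM in P1, 16.0 and 16.7 in P2, 5.50 and 4.04 in P3, and 6.04 and 7.84 in P4. The groups did not overlap, but P1 replicate 1 was more than double P1 replicate 2. The log2 fold change was -1.75 (SE 0.298, FDR = 0.00549 in edgeR), a 3.35-fold lower level (exact permutation p = 0.0286, two-sided). The FDR was above 0.01 when any 1 of 6 samples was left out. It was 0.0113 without P1 replicate 1, 0.0120 without P2 replicate 1, 0.0134 without P2 replicate 2, 0.0177 without P3 replicate 1, 0.0158 without P3 replicate 2 and 0.0184 without P4 replicate 1, while the log2 fold change stayed between -1.92 and -1.41 over all 8 such fits. ABHD12, the paralog, had a log2 fold change of -0.18 (SE 0.182, FDR = 0.583 in edgeR).

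ESRG was at 1251 and 1071 CPM in P1, 955 and 953 in P2, 637 and 742 in P3, and 548 and 523 in P4. In CPM the mean was lower in each line than in the one before, and neighbouring lines did not overlap. In TPM P2 lay within the range of P1, and P4 overlapped P3. The change between late and early was smaller than for HHLA1, with a log2 fold change of -0.79 (SE 0.158, FDR = 0.0134 in edgeR), which missed both limits of the call, and an exact permutation p of 0.0286 (two-sided). P4 against P1 was called, at -1.12 on the log2 scale (SE 0.195, FDR = 0.00547 in edgeR), or 2.17-fold lower. That call was lost, with an FDR of 0.0169 to 0.0480, when any 1 of the samples P1 replicate 1, P1 replicate 2, P2 replicate 1, P2 replicate 2, P4 replicate 1 or P4 replicate 2 was left out. The steps between neighbouring lines were -0.28 (SE 0.193) from P1 to P2, -0.47 (SE 0.193) from P2 to P3 and -0.36 (SE 0.193) from P3 to P4, and none was called.

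LNCPRESS1 was at 60.3 and 31.6 CPM in P1, 72.2 and 80.3 in P2, 25.8 and 21.8 in P3, and 35.8 and 26.4 in P4. P2 was highest and P1 replicate 2 fell below P4 replicate 1, so the early and late groups overlapped. The log2 fold change was -1.15 (SE 0.262, FDR = 0.0240 in edgeR; exact permutation p = 0.0571, two-sided). The fall from P2 to P3 was called at -1.68 on the log2 scale (SE 0.285, FDR = 0.00351 in edgeR), and it was lost without P2 replicate 1 (FDR 0.0154), P2 replicate 2 (0.0279), P3 replicate 1 (0.0169) or P3 replicate 2 (0.0238). Without P1 replicate 2 the change between late and early was called at -1.37 (FDR = 0.00339 in edgeR), and P4 against P2 was called without P1 replicate 1 or P1 replicate 2 (FDR 0.00882 and 0.00920). SIRT6, the deacetylase that LNCPRESS1 is known to bind, had a log2 fold change of 0.23 (FDR = 0.330 in edgeR) and was not called in any comparison.

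LINC-ROR followed another course. It was at 7.13 and 5.48 CPM in P1, 4.33 and 4.20 in P2, 6.29 and 8.17 in P3, and 1.00 and 0.87 in P4. Only the P4 samples were low, resting on 29 and 26 counts against 150 to 293 in the other 6 samples. P4 against P3 gave a log2 fold change of -2.95 (SE 0.328, FDR = 0.000457 in edgeR), a 7.71-fold lower level, in a comparison that called 0.262% of all genes lower and 0.554% higher. P4 was also below P1, by -2.75 (SE 0.327, FDR = 0.000398), and below P2, by -2.19 (SE 0.325, FDR = 0.00203), in the same edgeR fit. Neither was called on log2 TPM in limma. With 0.1 and 1 added the FDR there was 0.0128 and 0.0254 against P1, and 0.0317 and 0.0767 against P2. The P4 against P3 call was lost on log2 TPM in limma (FDR 0.0157 with 0.1 added and 0.0393 with 1 added), and the P4 against P2 call was lost without P2 replicate 1, P2 replicate 2, P4 replicate 1 or P4 replicate 2 (0.0131 to 0.0231). P3 did not differ from P1 beyond the error (0.20, SE 0.288), and P3 and P4 as 1 group differed from the early lines by a log2 fold change of -0.37 (SE 0.606, FDR = 0.745 in edgeR; exact permutation p = 0.400, two-sided). PTBP1, which LINC-ROR is known to be linked with, had a log2 fold change of 0.18 between late and early and was not called in any comparison.

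LINC00678 was at 163 and 123 CPM in P1, 177 and 177 in P2, 183 and 176 in P3, and 127 and 147 in P4. Early and late samples overlapped throughout. The log2 fold change was -0.02 (SE 0.166, FDR = 0.964 in edgeR; exact permutation p = 0.943, two-sided), and no pairwise comparison was called, the largest fitted value being -0.38 (SE 0.197) for P4 against P3.

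Pair by pair, no member was called between P2 and P1, where 0.0% of all genes were called in edgeR, 1783 genes (9.14%) had an unadjusted p under 0.05 and DESeq2 called 40. HHLA1 and LNCPRESS1 were the members with an unadjusted p under 0.05, and DESeq2 called 0 members. P3 against P1 called HHLA1 (-2.94, SE 0.286) and ABHD12B (-2.27, SE 0.366), against 2.63% of all genes called lower. P4 against P1 called HHLA1 (-2.91, SE 0.287), LINC-ROR and ESRG, against 1.16%. P3 against P2 called HHLA1 (-2.22, SE 0.280), ABHD12B (-1.78, SE 0.362) and LNCPRESS1, against 2.08%. P4 against P2 called HHLA1 (-2.19, SE 0.281) and LINC-ROR, against 0.856%. The ABHD12B call in P3 against P1 was lost without P1 replicate 1 (FDR 0.0180), P3 replicate 1 (0.0114) or P3 replicate 2 (0.0179), that in P3 against P2 was lost in 5 of 8 such fits, without P2 replicate 1, P2 replicate 2, P3 replicate 1, P3 replicate 2 or P4 replicate 1 (FDR up to 0.0585), and P4 against P1 was called for ABHD12B without P1 replicate 2 (0.00465). On log2 TPM in limma, HHLA1 was the member called in P3 against P1 and in P4 against P1, and it was not called in P3 against P2 or P4 against P2 (FDR 0.0112 to 0.0317). These comparisons share samples and their values are set side by side, not added up. Their edgeR fits also share an estimate of the spread over all 4 lines. The 2 libraries of a line differed by a mean chi-squared per gene of 20.6 in P2, against 102 in P1, 158 in P3 and 140 in P4. A pair of lines is therefore not judged by the spread of its own libraries alone. P4 and P3 differed in HHLA1 by 0.02 (SE 0.279) on the log2 scale.

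**Figure D2:**
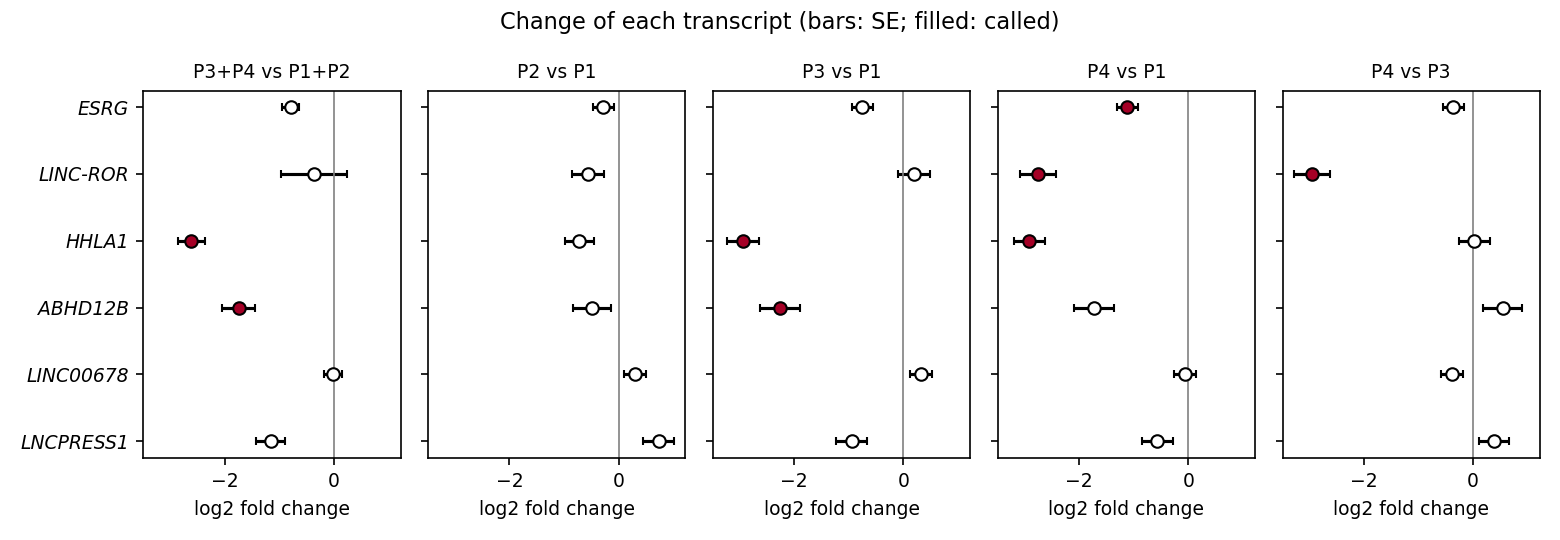
Log2 fold change (x axis) of the 6 members in 5 comparisons, with bars of 1 standard error and filled points for called members. HHLA1 stands at -2.61 between late and early lines, and LINC-ROR at -2.95 in P4 against P3.

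The transcripts counted for HHLA1 were shorter in the late lines. For each gene the tables hold the mean length of its transcripts, weighted by their estimated abundance. For HHLA1 this mean was 3206, 3335, 3224 and 3121 bases in the 4 early samples in line order, and 2572, 2641, 2386 and 2569 bases in the 4 late ones. The groups did not overlap, and the mean went from 3222 ± 88.3 to 2542 ± 109 bases (SD, n = 4 for each; exact permutation p = 0.0286, two-sided). That p is the smallest that 4 against 4 samples allow and follows from the lack of overlap. Transcript lengths were looked at after the data were seen, so the p is a description. A mean length lower in every late sample was found in 1.79% of the 15839 tested genes with more than 1 transcript. With the GENCODE 29 lengths of 4105 bases for HHLA1-201, 2369 for HHLA1-202 and 2268 for HHLA1-203, the mean length of the early samples places HHLA1-201 between 49.1% and 51.9% of the transcripts and that of the late samples between 9.96% and 14.9%. The annotation release behind the tables is not given in the sources used here. Of the 3418 tested genes with 1 transcript in both sources, 98.2% had the same length in the tables as in GENCODE 29 to within 0.5 bases, LNCPRESS1 being an exception at 756 bases in the tables and 867 in GENCODE 29. The late estimates rest on 127 to 213 counts a sample. Exons of HHLA1 overlap AC100868.1 on the same strand, so reads can be split between them. AC100868.1 was at 2.77 to 3.93 CPM in the early samples and 0.168 to 0.537 in the late ones. For ABHD12B the groups overlapped, with 938 ± 22.9 bases early and 934 ± 44.3 late (SD, n = 4 for each; exact permutation p = 0.83, two-sided).

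**Figure D3:**
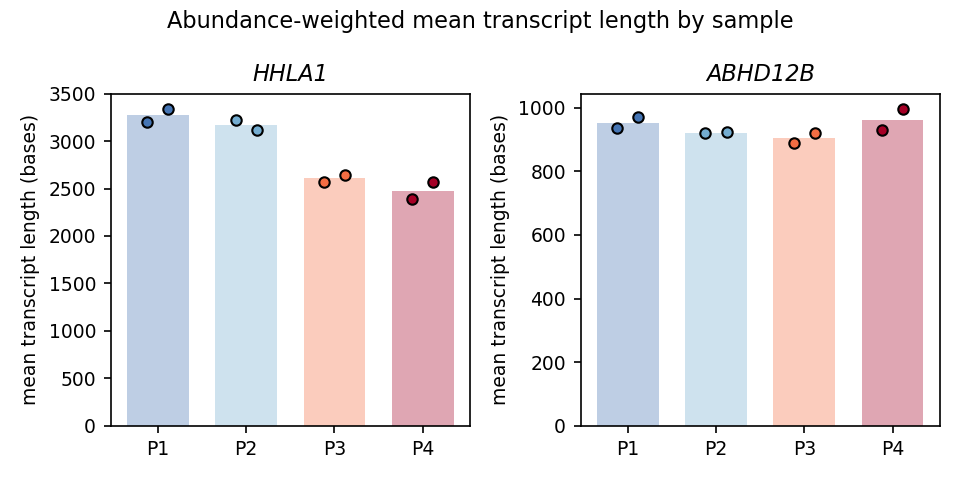
Abundance-weighted mean transcript length in bases (linear axis from 0) of HHLA1 and ABHD12B, with a point for each sample and a bar for the mean of each line. HHLA1 falls from between 3121 and 3335 bases in P1 and P2 to between 2386 and 2641 in P3 and P4, and ABHD12B does not separate.

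Among 9 other noncoding or HERVH-linked transcripts of pluripotent cells, 8 were tested. Of these 2 were called lower between late and early, LINC00458 and LINC01108, against 1.14% of all genes. The median of the 8 was -0.34. LINC00458, a noncoding RNA of hESCs, went from 77.0 and 47.0 CPM in P1 and 41.4 and 46.8 in P2 to 1.93 and 1.42 in P3 and 4.63 and 5.92 in P4, without overlap between the groups (log2 fold change -3.94, SE 0.424, FDR = 0.000359 in edgeR), a 15.3-fold lower level. LINC01108, a noncoding RNA of hESCs, was at 10.1 to 18.3 CPM early and 3.57 to 6.46 late (log2 fold change -1.40, SE 0.260, FDR = 0.00875 in edgeR). Its call was lost when any 1 sample other than P4 replicate 2 was left out, with an FDR up to 0.0304, and in the replicate block and both limma fits, whereas LINC00458 was called without any 1 of the 8 samples. TUNAR, a noncoding RNA of pluripotent and neural cells, was called in P3 against P1 (-1.13, SE 0.197) and in P3 against P2 (-1.23, SE 0.197). The first of these calls was lost without any 1 sample of P1 or P3, and the second without P2 replicate 1, P2 replicate 2 or P3 replicate 2, and both in limma on log2 TPM.

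The list of activators of LTR7 and HERVH held 10 genes, all tested. Besides POU5F1, SOX2, NANOG, KLF4 and TFCP2L1 it holds EP300, MED6, MED12, SALL4 and PRDM14, whose action on LTR7 was not tested. In edgeR 0 of the 10 were called in any of the 7 comparisons, while DESeq2 called KLF4 and TFCP2L1 in at least 1. Single comparisons in DESeq2 called 40 to 1392 of the tested genes. KLF4 was at 3.95 to 6.84 CPM in P1, P2 and P3 and at 11.1 and 23.6 in P4. TFCP2L1 was at 5.05 to 7.77 CPM in P1, P2 and P3 and at 9.47 and 16.7 in P4. An unadjusted p under 0.05 was found for 7 of the 10 in at least 1 comparison. Single comparisons gave such a p for 9.14% to 29.5% of all genes. The share of all genes with such a p in at least 1 of the 7 is not given here, so the 7 of 10 cannot be judged against it. The median log2 fold change of the 10 was 0.22 between late and early, where edgeR called 1.14% of all genes lower and 1.06% higher. There 3 of the 10 had an unadjusted p under 0.05, near the 25.5% of all genes, and DESeq2 called 0. POU5F1, SOX2 and NANOG had log2 fold changes of 0.32 (SE 0.153, FDR = 0.223), -0.17 (SE 0.190, FDR = 0.608) and 0.23 (SE 0.200, FDR = 0.499), and KLF4 and TFCP2L1 of 0.99 (SE 0.394, FDR = 0.146) and 0.48 (SE 0.327, FDR = 0.380), all in edgeR. Of 21 genes of the retroelement silencing machinery 1 was called between late and early, against 1.06% of all genes called higher. It was SUV39H1, a histone methyltransferase, with 22.0 to 26.6 CPM early and 39.0 to 60.3 late (log2 fold change 1.02, SE 0.161, FDR = 0.00368 in edgeR). That call was lost without any 1 of P1 replicate 1, P1 replicate 2, P2 replicate 1, P2 replicate 2, P3 replicate 1 or P4 replicate 1, with an FDR up to 0.0196, and in both limma fits. TRIM28 and SETDB1 had log2 fold changes of 0.29 (SE 0.162) and 0.04 (SE 0.121) and DNMT3B, a DNA methyltransferase, of 0.23, without a call. KDM1A, a histone demethylase, was called in P4 against P3 (-1.23, SE 0.188, FDR = 0.00485 in edgeR), a call lost without any 1 of the samples of P2, P3 or P4 (FDR up to 0.0464). ZNF534, a zinc finger gene of the same list that was picked out after its values were seen, had 0 or 1 counts in the early samples, 0 and 3 in P3, and 13 and 22 in P4, and was not called (FDR = 0.0522 in edgeR). MCM2, the partner of ESRG, had a log2 fold change of 0.10 and was not called.

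**Figure D4:**
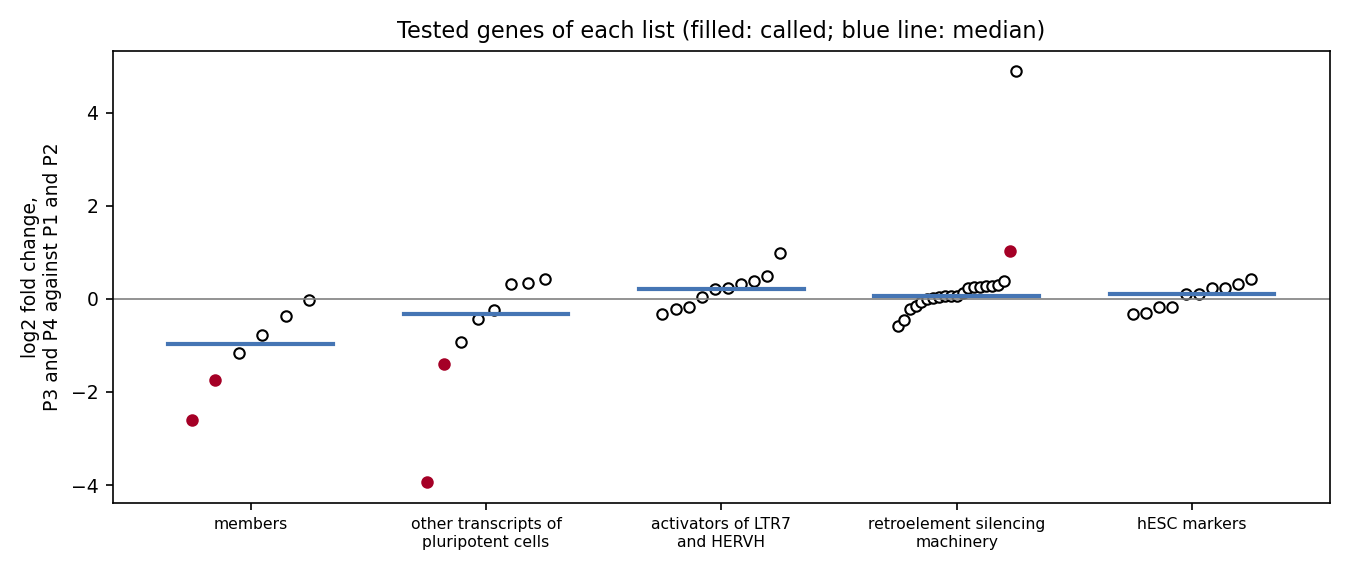
Log2 fold change between late and early lines for each tested gene of the members and 4 lists, with called genes filled and the median as a blue line. The median is -0.97 for the members, -0.34 for other transcripts of pluripotent cells and 0.22 for the activators, and the unfilled point near the top is ZNF534, with 22 counts at most.

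For each member the nearest tested gene on either side that does not overlap it was taken from the annotation. Of these 12 genes, 0 were called between late and early in edgeR and in DESeq2. In edgeR 1.14% of all genes were called lower and 1.06% higher, so 0 of 12 is near that share. KCNQ3 and WDR7 had an unadjusted p under 0.05 in edgeR, as did 25.5% of all genes. Next to HHLA1, KCNQ3, 9.7 kb away, had a log2 fold change of -0.56 (SE 0.223) and EFR3A, 47.8 kb away, of -0.23 (SE 0.166). NIN and TRIM9, 41.0 and 70.3 kb from ABHD12B, had log2 fold changes of -0.19 (SE 0.198) and -0.54 (SE 0.314). WDR7, 18.0 kb from LINC-ROR, had a log2 fold change of 0.38 (SE 0.169), and EMSLR, 7.0 kb from LNCPRESS1, of 0.12 (SE 0.255). In pairs of lines 1 of the 12 was called, ST8SIA3, where a single pair called 0 to 767 of the 19499 tested genes. P3 against P2 called 667 of these and P4 against P3 called 159. ST8SIA3 is a sialyltransferase gene 278.7 kb from LINC-ROR. It was at 13.1 and 12.6 CPM in P1, 10.2 and 8.68 in P2, 25.1 and 22.4 in P3, and 8.34 and 6.66 in P4. It was higher in P3 than in P2 (1.33, SE 0.230, FDR = 0.00387 in edgeR) and lower in P4 than in P3 (-1.66, SE 0.234, FDR = 0.00243 in edgeR). The first call was lost without P2 replicate 1, P2 replicate 2 or P3 replicate 1, the second without P3 replicate 1 or P4 replicate 2, and both in limma on log2 TPM. Of the genes that overlap a member, AC100868.1, which shares exons with HHLA1, was called lower between late and early (-2.97, SE 0.354, FDR = 0.000668 in edgeR). CACNA2D3, PYGL and BDNF-AS, which overlap ESRG, ABHD12B and LINC00678 on the other strand, had log2 fold changes of 0.35 (SE 0.267), -0.07 (SE 0.230) and -0.15 (SE 0.359), without a call.

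Over the 8 samples, the members were alike to differing degrees in log2 CPM. Pearson's r was 0.95 for ESRG with HHLA1, 0.91 for HHLA1 with ABHD12B and 0.81 for ESRG with ABHD12B, and between -0.05 and 0.52 for LINC00678 with each of the others. These are descriptions over samples that share a line in pairs. The gene most like HHLA1 among all genes with a mean of at least 1 CPM was AC027288.1 (r = 0.99, n = 8), a noncoding gene on chromosome 12 that was at 6.35 to 14.2 CPM in the early samples and 0.348 to 0.781 in the late ones (log2 fold change -3.96, SE 0.360, FDR = 0.000123 in edgeR). It was found by its likeness over these samples, so this change is a description. ESRG was most like CCDC144NL-AS1 (0.99), PLCB4 (0.98) and RGS5 (0.98), LINC-ROR like TLR3, FOXP1 and VIL1 (0.98 each), and ABHD12B like AC009055.2 (0.98), ZMAT1 (0.97) and MAGI2 (0.97). VIL1 was at 18.0 to 25.3 CPM in P1, P2 and P3 and at 6.08 and 5.11 in P4. It was chosen by its likeness to LINC-ROR over these samples, so sharing that split is a description. LINC00678 was most like SLC9A7P1 (0.97), BCAS3 (0.96) and MRPS31P4 (0.96), and LNCPRESS1 like NUDT7 (0.99), CAVIN1 (0.98) and PHLDA2 (0.98).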

How the data were processed

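Bulk RNA-seq of 8 samples was used. Per the labels and the study's methods, reads from a stranded mRNA kit were trimmed with Trim Galore, aligned to GRCh38 with STAR 2.7.3a and quantified with RSEM 1.3.3. The authors deposited, for each gene and sample, an expected count, TPM and FPKM. The deposited FPKM values were not used. Expected counts were rounded to whole numbers, genes were filtered with filterByExpr, and edgeR 4.0.16 (R 4.3.3) quasi-likelihood fits with TMM factors gave the main test, in 2 groups of 4 or, for pairs of lines, in 4 groups of 2. DESeq2 1.42.0 and limma 3.58.1 on log2 TPM were alternatives. Single values were tested by exact permutation in scipy 1.17.1 on log2 CPM with 0.1 added. A count of 3 was worth 0.0787 to 0.112 CPM. GENCODE 29 covered 94.0% of the identifiers and gave positions and transcript lengths. The code was tested on simulated data. The members and lists were chosen with earlier results of these data known. Besides the members, genes of the lists reported here were named when called in any of the 7 comparisons, when fixed as activators, silencers or partners, as nearest neighbours, as the 3 most alike, or for the reasons given. Transcript lengths were added after the data were seen. Some items of the sequences and of the lists are not reported here. Coordinates are GRCh38.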

Additional observations from a re-analysis of the deposited data

Results flagged for a closer look

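LINC-ROR was picked out because its change from P1 differed between the culture-adapted lines by a test of that difference. P4 lay below P3 by a log2 fold change of -2.947 (SE 0.328, FDR = 0.000457 in edgeR), with both P4 samples, at 1.00 and 0.87 CPM, below both P3 samples, at 6.29 and 8.17 CPM. In all 8 fits that left out 1 sample the value stayed called, between -3.12 and -2.75. The 6 members in the early and late lines formed 12 groups of 4 samples. On log2 CPM with 0.1 added, no sample stood apart within them by Dixon's 95% limit. P1 replicate 1 of ABHD12B, at 32.3 CPM against 13.6 to 16.7 in the other early samples, was not marked on that scale. Chance alone would mark about 0.6 of 12 groups if the samples of a group were alike. Each group holds 2 lines, so a split between lines, such as that of LINC-ROR in P3 and P4, cannot be marked.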

How the results depend on the processing

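Of 714 log2 fold changes of the members under other settings, 634 kept their direction and their side of the limits, 45 were no longer called, 20 became called and 15 changed sign, none of the last being called. The 2 members called between late and early became 4 at an FDR under 0.05 with no minimum fold change. That setting also gave 4 in P3 against P1 and 4 in P4 against P2, where it called 2434 and 866 of all 19499 genes. Without the filter on low counts P4 against P2 called 4 members and 924 of 34107 genes. On log2(TPM + 0.1) and on log2(TPM + 1) in limma, P3 against P1 called 1, P4 against P1 called 1, P3 against P2 called 1, P4 against P2 called 0 and P4 against P3 called 0, LINC-ROR being at -2.59 (FDR 0.0157) and -1.54 (FDR 0.0393) there. For these pairs of lines the limma fits called 74 to 274 of all genes. In P4 against P1, ESRG was not called when the fit held only the 4 samples of the lines compared (FDR 0.0176). DESeq2, the 4-group model and the fit without the filter also called LNCPRESS1 between late and early. Over all genes, 429 were called between late and early, 906 by DESeq2, 919 in the 4-group model, 740 without the filter, 1470 at an FDR under 0.05 with no minimum, 282 and 242 on log2 TPM with 0.1 and 1 added, and 228 to 458 when 1 sample was left out. The cause was not tested.

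When 1 sample was left out, the members called were 1 to 3 between late and early, 1 to 2 in P3 against P1, 1 to 3 in P3 against P2 and 1 to 3 in P4 against P2. Values near 0 changed sign: LINC00678 between late and early (-0.1233 to 0.07448, and 0.002183 without the filter), in P4 against P1 (-0.2513 to 0.1493) and in P3 against P2 (-0.009925 to 0.04767, and -0.2394 and -0.2388 on log2 TPM with 0.1 and 1 added), ABHD12B in P2 against P1 (-0.9843 to 0.288), LINC-ROR in P3 against P1 (-0.005149 to 0.4175) and HHLA1 in P4 against P3 (-0.405 to 0.356). LINC-ROR in P4 against P2 was not called without P2 replicate 1, P2 replicate 2, P4 replicate 1 or P4 replicate 2 (FDR 0.0131 to 0.0231). Of the other markers called in pairs of lines, EOMES in P3 against P1 was lost without any 1 sample of those lines (FDR up to 0.0199), FOXA2 in P3 against P1 without P1 replicate 1, P1 replicate 2 or P3 replicate 1 (up to 0.0419) and in P3 against P2 without P2 replicate 1 or P2 replicate 2 (up to 0.0194), and KRT7 without any 1 sample of P1, P2 or P4 (up to 0.0816). The mean transcript length of HHLA1 differed between late and early by -713.4 to -627.8 bases.

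Replicates with the same number were not shown to be paired, with correlations of their deviations from the line means between -0.0891 and 0.138. A replicate block left the number of members called at 2 between late and early and as before in the pairs of lines, gave 343 genes called over all genes, and moved HHLA1 in P4 against P3 to -0.005644. With 2 samples a line, and 26 and 29 counts of LINC-ROR in P4, small differences were not detectable at this depth.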
